A study of Mus musculus with 16 samples.

Results

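The liver releases glucose into the blood, and 9 genes of this output were examined in mice with and without hepatocyte *Fgl1*. They were taken by name from the table of FPKM values (fragment counts scaled by transcript length and by the size of the library), and all 9 of the 9 symbols were found among 17003 genes. Liver polyA RNA of 16 fed male mice was sequenced, with 1 library per mouse. The mice were 8 weeks old, ate normal chow, and comprised 8 *Fgl1* LWT and 8 *Fgl1* LKO animals. All of them carried floxed *Fgl1* alleles, and in *Fgl1* LKO mice Cre under the albumin promoter, which is active in hepatocytes, acted on these alleles. Other liver cells therefore kept *Fgl1*, and the groups were littermates by the study's methods. The labels give a number for each mouse, and neighbouring numbers were put into 4 runs by hand (36 to 38, 48 to 55, 60 to 64 and 69 to 72). These runs are not a recorded batch, no date or order is given with the numbers, and mouse 55 lies as far from mouse 50 as from mouse 60. Other ways to cut them were not tried. The summed FPKM of a mouse lay between 673153 and 786188. The question was whether the loss of hepatocyte FGL1, a protein secreted by the liver, went along with a difference in the genes of hepatic glucose production.

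In the fasted state the liver makes glucose from lactate, amino acids and glycerol, and after meals insulin suppresses this route. Pyruvate carboxylase (*Pcx*) makes oxaloacetate in mitochondria, phosphoenolpyruvate carboxykinase (*Pck1*) turns it into phosphoenolpyruvate, and fructose-bisphosphatase (*Fbp1*) acts later on the way to glucose. Glucose-6-phosphate is carried into the endoplasmic reticulum by *Slc37a4*, is hydrolysed there by glucose-6-phosphatase (*G6pc*), and the glucose can leave through GLUT2 (*Slc2a2*). The transcription factor FOXO1 (*Foxo1*) and the coactivator PGC-1alpha (*Ppargc1a*) raise the enzyme genes, and insulin receptor substrate 2 (*Irs2*) passes on the insulin signal that keeps FOXO1 out of the nucleus.

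The positions are those of GENCODE on GRCm39, and the number after each symbol is the gene identifier in the table. The enzymes are *Pck1* (18534, chr2:172994744-173001066, plus strand), *G6pc* (14377, chr11:101258369-101268729, plus strand), *Fbp1* (14121, chr13:63012567-63036263, minus strand) and *Pcx* (18563, chr19:4559902-4672189, plus strand), with *G6pc* named *G6pc1* there. The transporters are *Slc37a4* (14385, chr9:44308144-44314265, plus strand) and *Slc2a2* (20526, chr3:28752051-28785508, plus strand), and the regulators *Ppargc1a* (19017, chr5:51611592-51725068, minus strand), *Irs2* (384783, chr8:11034681-11059499, minus strand) and *Foxo1* (56458, chr3:52175757-52260642, plus strand).

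*Fgl1* itself was measured first, as a check of the labels, with FPKM taken over the whole gene and not over its floxed part. It ranged from 158 to 1331 FPKM in the *Fgl1* LWT livers with a median of 312, and from 13.2 to 90.0 FPKM in the *Fgl1* LKO livers with a median of 50.3. No *Fgl1* LKO value reached the *Fgl1* LWT range, and the two-sided p of the exact permutation test was 0.000155, which is as low as 8 against 8 mice can go. Adjusted over all genes, the limma p of *Fgl1* was 0.0725 for a log2 difference of -3.11 ± 0.49 (SE). In 4 other fits *Fgl1* had an adjusted p under 0.05. These had sums made equal, a replicate block, the runs fitted, or the lowest-numbered run left out. *Fgl1* varied within each genotype too. Its highest values among *Fgl1* LWT mice, 1331 and 1040 FPKM, were those of replicates 7 and 5. The tissue carried the defining markers of liver: albumin (*Alb*) lay between 31146 and 61191 FPKM. Of the 3 pancreatic markers, *Prss2* and *Cpa1* were listed at 0 in every mouse and *Cela2a* at 0.35 to 2.41 FPKM, and the 2 markers of the renal proximal tubule summed to at most 0.20 FPKM. The 2 markers of small intestine were not near 0 together. *Fabp2* lay between 15.3 and 66.0 FPKM, while *Vil1* had at most 0.23.

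The 9 genes spanned a wide range of levels. Over the 16 mice, *Pck1* had the highest mean FPKM, 913 ± 295 (SD, n = 16), followed by *Fbp1* with 640 ± 100 and *G6pc* with 293 ± 137. *Pck1* was above *Fbp1* in 13 of 16 mice and *Fbp1* above *G6pc* in 16. *Pcx* had 136 ± 20.4 FPKM and lay below *G6pc* in 14 mice. The transporters followed at 95.9 ± 20.8 FPKM for *Slc37a4* and 93.8 ± 25.1 for *Slc2a2*, and these neighbours did not differ beyond their spread, since *Slc37a4* was the higher in 9 of 16 mice. The regulators were far lower, with *Foxo1* at 6.96 ± 1.57 FPKM, *Irs2* at 5.55 ± 1.95 and *Ppargc1a* at 1.41 ± 0.611. *Foxo1* exceeded *Irs2* in 13 mice.

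**Figure D1:**
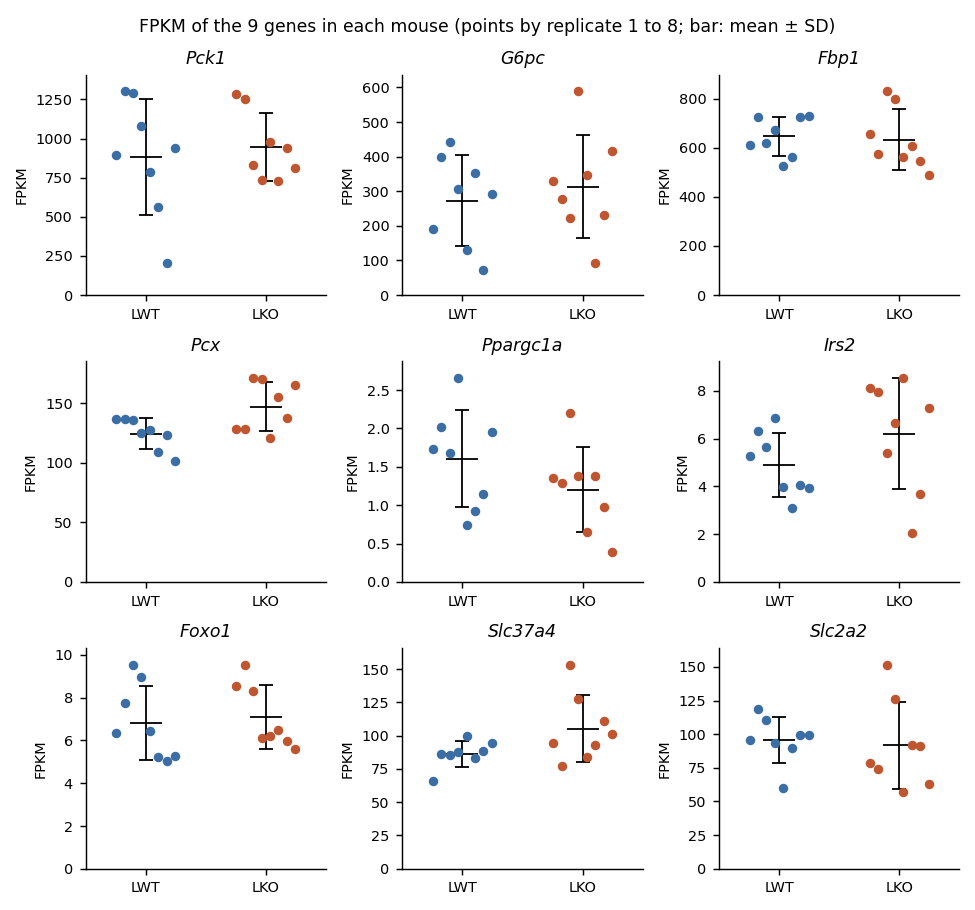
FPKM of each of the 9 genes on the y axis for the 8 *Fgl1* LWT and 8 *Fgl1* LKO mice, as points in the order of replicate number, with the mean and SD of each genotype as bars. The genotypes overlap for all 9 genes, and *Fgl1* LWT replicate 7 lies lowest for *Pck1* (203 FPKM) and *G6pc* (71.9 FPKM).

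Between genotypes, none of the 9 genes passed the threshold, and 2 of the 9 had an unadjusted p under 0.05. In the limma fit of log2(FPKM + 1) across 12770 genes, 0 genes (0%) had an adjusted p under 0.05, and 895 (7.01%) had an unadjusted p under 0.05, of which 593 (4.64% of the genes tested) were higher in *Fgl1* LKO livers. Both of the 2 genes, *Pcx* and *Slc37a4*, were higher in *Fgl1* LKO. The median log2 difference of the 9 genes was 0.23, with 6 higher and 3 lower in *Fgl1* LKO. That of all genes tested was 0.01, with 7126 higher and 5644 lower. Without *Fgl1* LWT replicate 7 the median of the 9 genes was -0.0097, with 4 higher and 5 lower. It was 0.11 without *Fgl1* LWT replicate 5, 0.09 without *Fgl1* LKO replicate 4 and 0.15 without *Fgl1* LKO replicate 8, so that it depended on single mice. All values of differences in the text are on this log2(FPKM + 1) scale, which understates the change of low genes.

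*Pck1* codes for the cytosolic enzyme that commits oxaloacetate to glucose synthesis. It ranged from 203 to 1305 FPKM in *Fgl1* LWT livers (median 917) and from 726 to 1283 FPKM in *Fgl1* LKO livers (median 886). The means were 883 ± 371 FPKM (SD, n = 8) and 944 ± 218 FPKM (SD, n = 8), and 4 of 8 *Fgl1* LKO mice were higher than the *Fgl1* LWT median. The log2 difference was 0.24 (95% interval -0.38 to 0.87, exact permutation p = 0.568, adjusted limma p = 0.852). Without *Fgl1* LWT replicate 7, whose 203 FPKM was the lowest value, the difference was -0.034. Fitting the runs of mouse numbers beside genotype gave 0.46 for *Pck1* and likewise 0.46 for *G6pc*, and without the 3 *Fgl1* LWT mice of the lowest-numbered run the difference of *Pck1* was 0.58. Neither passed the threshold.

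*G6pc*, which makes the final step to free glucose, was the most variable of the enzymes. It lay between 71.9 and 441 FPKM in *Fgl1* LWT livers (median 299) and between 91.4 and 590 FPKM in *Fgl1* LKO livers (median 304). The lowest values belonged to *Fgl1* LWT replicate 7 and *Fgl1* LKO replicate 6, and the highest to *Fgl1* LKO replicate 4. The log2 difference of 0.23 (95% interval -0.56 to 1.03, exact permutation p = 0.589, adjusted limma p = 0.895) was smaller than the spread between mice. The difference was -0.0097 without *Fgl1* LWT replicate 7, and 0.50 without the 3 *Fgl1* LWT mice of the lowest-numbered run.

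*Fbp1* and *Pcx* varied less. *Fbp1* had 647 ± 79.1 FPKM (SD, n = 8) in *Fgl1* LWT and 634 ± 123 FPKM (SD, n = 8) in *Fgl1* LKO livers, with medians of 647 and 591 FPKM. Its log2 difference was -0.043 (95% interval -0.28 to 0.19, exact permutation p = 0.706, adjusted limma p = 0.940) and 0.0073 without *Fgl1* LKO replicate 8. *Pcx* ranged from 102 to 137 FPKM (median 126) in *Fgl1* LWT and from 121 to 172 FPKM (median 147) in *Fgl1* LKO livers. In 7 of 8 *Fgl1* LKO mice it was above the *Fgl1* LWT median, while the groups overlapped. Its log2 difference was 0.23 (95% interval 0.05 to 0.42), with an exact permutation p of 0.0238 (two-sided) and an adjusted limma p of 0.696. It therefore did not pass the threshold over all genes.

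Of the transporters, *Slc37a4* had 86.4 ± 9.74 FPKM (SD, n = 8) in *Fgl1* LWT and 105 ± 25.1 FPKM (SD, n = 8) in *Fgl1* LKO livers. *Fgl1* LKO replicates 3 and 4 held the highest values, with up to 153 FPKM, and 6 of 8 *Fgl1* LKO mice were above the *Fgl1* LWT median. The log2 difference was 0.26 (95% interval 0.0047 to 0.51), with an exact permutation p of 0.0639 (two-sided) and an adjusted limma p of 0.696. Its unadjusted limma p of 0.0463 depended on the fit. This p was 0.221 with the runs fitted (log2 difference 0.19), 0.206 without the lowest-numbered run (0.18), 0.0631 with median-ratio scaling and 0.103 without *Fgl1* LKO replicate 3 (0.18). *Slc2a2* lay between 60.1 and 119 FPKM (median 97.4) in *Fgl1* LWT and between 57.2 and 152 FPKM (median 84.9) in *Fgl1* LKO livers. Its log2 difference was -0.11 (95% interval -0.48 to 0.27, exact permutation p = 0.589, adjusted limma p = 0.897), and 0.0063 without the 3 mice of the lowest-numbered run. On GRCm39, exons of *Slc37a4* share 4112 bases with those of *Trappc4* on the other strand. *Trappc4* had 13.9 FPKM in *Fgl1* LWT livers and a log2 difference of 0.01. The kit keeps the strand by the labels, but whether the counting used it is not given in the sources used here.

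The regulators differed by less than their spread. *Ppargc1a* ranged from 0.74 to 2.66 FPKM in *Fgl1* LWT and from 0.39 to 2.20 FPKM in *Fgl1* LKO livers, and 7 of 8 *Fgl1* LKO values were under the median of *Fgl1* LWT. Its log2 difference was -0.24 (95% interval -0.59 to 0.11, exact permutation p = 0.202, adjusted limma p = 0.751), and with a pseudocount of 0.1 FPKM it was -0.42. *Irs2* ranged from 3.11 to 6.87 FPKM in *Fgl1* LWT and from 2.05 to 8.55 FPKM in *Fgl1* LKO livers (medians 4.67 and 6.97), with a log2 difference of 0.23 (95% interval -0.21 to 0.68, exact permutation p = 0.331, adjusted limma p = 0.797). *Foxo1* was at 6.82 ± 1.74 and 7.10 ± 1.48 FPKM (SD, n = 8 each), with a log2 difference of 0.06 (95% interval -0.22 to 0.34, exact permutation p = 0.663, adjusted limma p = 0.925). Its difference was 0.0041 without *Fgl1* LKO replicate 2 and 0.13 without *Fgl1* LWT replicate 3. Leaving out the lowest-numbered run (3 *Fgl1* LWT mice) gave differences of -0.16 for *Ppargc1a*, 0.37 for *Irs2* and 0.18 for *Foxo1*, and none passed the threshold.

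**Figure D2:**
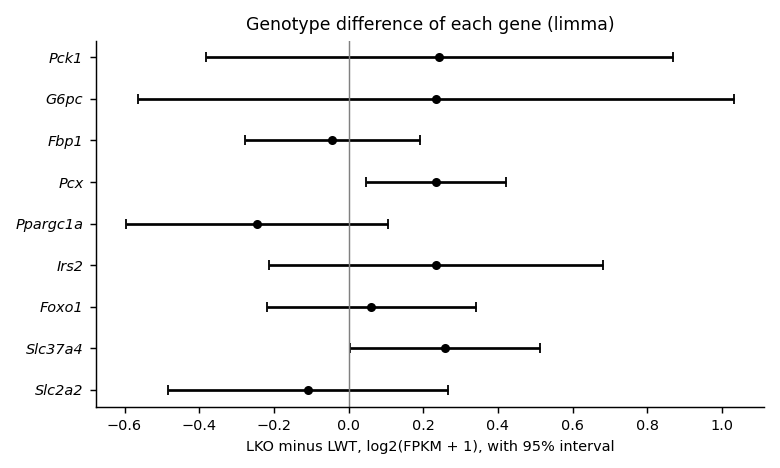
Log2 difference of each gene between *Fgl1* LKO and *Fgl1* LWT livers on the x axis (log2(FPKM + 1), limma), with 95% intervals that are not adjusted for the number of genes. The intervals of *Pcx* and *Slc37a4* lie above 0, and the other 7 cover 0.

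Fed livers of the same genotype differed widely in some of these genes. The SD within a genotype on the log2(FPKM + 1) scale was 0.85 for *G6pc*, above that of 99.3% of the genes tested, 0.66 for *Pck1* (98.3%), 0.47 for *Irs2* (96.0%), 0.39 for *Slc2a2* (93.5%) and 0.37 for *Ppargc1a* (91.9%). *Foxo1* (0.28, above 84.6%), *Slc37a4* (0.26, 79.9%), *Fbp1* (0.23, 73.4%) and *Pcx* (0.18, 55.2%) were steadier. All 9 exceeded the median gene (0.17), *Pcx* by little. With a pseudocount of 0.1 FPKM 7 of the 9 exceeded the median gene. The order changed too, since the SD of *Ppargc1a* was then 0.64, above those of *Irs2* (0.56) and *Slc2a2* (0.40). Without *Fgl1* LWT replicate 7 the SD of *Pck1* was 0.37, above that of 92.6% of the genes, and without *Fgl1* LKO replicate 6 the SD of *Irs2* was 0.34, an alternative chosen after seeing the data.

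Some pairs of these genes went together over the mice. Over the 16 mice, 6 of 81 relations had an adjusted p under 0.05. The 81 were the 36 pairs of the 9 genes and each gene against 5 single genes that report on other states of the liver. Those reported here are *Igfbp1* for insulin, *Dbp* for the clock, *Saa1* for the acute phase and *Fasn* for lipogenesis. Of the 6, 4 joined members and 2 joined a member to *Igfbp1* or *Saa1*. *G6pc*, *Pcx* and *Slc37a4* were in none of them. The runs of mouse numbers held 3 to 5 mice each, too few for a correlation within a run, so that r after removal of genotype and run is given instead. In that test, which rests on runs cut by hand, with 1728 arrangements of mice within genotype and run, 0 of the 81 relations passed. So few arrangements limit how low p can go, and the lack of calls does not show that a relation was lost.

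The strongest relation was that of *Irs2* with *Igfbp1*, a secreted binding protein that insulin represses and FOXO1 induces. Pearson's r was 0.86 (permutation p = 1e-05, the smallest that 100000 resamples can give, adjusted p = 0.00081) and Spearman's rho was 0.85 (permutation p = 9e-05, adjusted p = 0.00365). Within genotype r was 0.89 in *Fgl1* LWT (exact p = 0.00127, n = 8) and 0.91 in *Fgl1* LKO livers (exact p = 0.00407, n = 8), and it was 0.90 after removal of genotype and run. Without the 2 mice farthest from the median of *Igfbp1*, r was 0.75 (permutation p = 0.00218, adjusted p = 0.0589), so that this call was lost. *Fgl1* LKO replicate 6 was lowest in both genes, at 2.05 FPKM of *Irs2* and 15.1 FPKM of *Igfbp1*, and it was also the lowest *Fgl1* LKO mouse in *G6pc*. *G6pc* had r = 0.62 with *Irs2* (permutation p = 0.0113, adjusted p = 0.114) and r = 0.60 with *Igfbp1* (permutation p = 0.0145, adjusted p = 0.119), neither past the threshold.

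*Pck1* went with *Foxo1* at r = 0.68 (permutation p = 0.00041, adjusted p = 0.0111). Spearman's rho was 0.68 (permutation p = 0.00492, adjusted p = 0.0664), r was 0.70 without the 2 mice farthest from the median of *Pck1* (permutation p = 0.00742, not past the threshold once adjusted), and 0.44 after removal of genotype and run. Within genotype r was 0.72 in *Fgl1* LWT (exact p = 0.0243, n = 8) and 0.69 in *Fgl1* LKO livers (exact p = 0.0651, n = 8). *Pck1* and *G6pc* had r = 0.61 (permutation p = 0.0147, adjusted p = 0.119) and rho = 0.39 (permutation p = 0.138, adjusted p = 0.484). Without *Fgl1* LWT replicate 7 their r was 0.26 and without the 2 mice farthest from the median of *Pck1* it was 0.41, so that its size depended on these mice. It was 0.80 in *Fgl1* LWT (exact p = 0.0247, n = 8) and 0.15 in *Fgl1* LKO livers (exact p = 0.736, n = 8), and the difference between these was not tested.

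As *Pck1*, *G6pc*, *Irs2* and *Igfbp1* are textbook targets of cAMP and FOXO signalling, the letters of such motifs were looked for in the 250 bases before the RefSeq starts (promoter sequences of RefSeq, build GRCm38.p6, placed on GRCm39 by exact match). Searched on both strands were the core of the cAMP response element (ACGTCA), the FOXO motif of insulin-responsive genes (CAAAACA), the general forkhead motif (GTAAACA), the TATA box (written TATAAA), the E-box of bHLH proteins (CACGTG), the D-box of clock proteins (TTATGTAA) and the CCAAT box. Stretches of 30 bases around matches are shown 5′ to 3′ on the gene's strand, with the matches in capitals (TGTTTTG is the FOXO motif read on the other strand).
Pck1 (chr2:172994763-172994792, plus strand): ggcctgccccttACGTCAgaggcgagcctc
G6pc (chr11:101258357-101258386, plus strand): ttttgtgtgccTGTTTTGctattttacgta
Irs2 (chr8:11058952-11058981, minus strand): cgcagagtCACGTGtTGTTTTGctcttagt
Igfbp1 (chr11:7147668-7147697, plus strand): gagctcacaagCAAAACAaacttattttga

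The cAMP core began 91 bases before the start of *Pck1*, and the insulin-responsive FOXO motif 174 bases before that of *G6pc*, 37 before that of *Irs2*, beside an E-box, and 108 before that of *Igfbp1*. Of 32851 RefSeq promoters of the same length, 6.47% held the cAMP core, 5.56% the insulin-responsive FOXO motif, 3.17% the forkhead motif, 12.4% the TATA box, 6.02% the E-box, 0.819% the D-box and 33.8% the CCAAT box. Counting every start listed for the 9 genes, 3 held the cAMP core, 2 the insulin-responsive FOXO motif, 2 the TATA box, 2 the E-box and 6 the CCAAT box, and 0 held the forkhead motif or the D-box. The stretches shown for *Pck1*, *Irs2* and *Igfbp1* lie wholly inside the GENCODE genes, and that of *G6pc* reaches into its gene. The GENCODE starts of these genes lie upstream of those of RefSeq. A match is a description of letters and no evidence of binding.

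A second set of relations joined *Fbp1*, *Slc2a2* and *Ppargc1a*. *Fbp1* and *Slc2a2* had r = 0.83 (permutation p = 0.00014, adjusted p = 0.00567) and rho = 0.84 (permutation p = 9e-05, adjusted p = 0.00365). *Ppargc1a* had r = 0.74 with *Slc2a2* (permutation p = 0.00112, adjusted p = 0.0194, rho = 0.76 with permutation p = 0.00096) and r = 0.74 with *Fbp1* (permutation p = 0.0012, adjusted p = 0.0194, rho = 0.77 with permutation p = 0.0009). After removal of genotype and run the r of these 3 pairs were 0.85, 0.79 and 0.78. *Fbp1* with *Slc2a2* had r = 0.72 without the 2 mice farthest from the median of *Fbp1* (permutation p = 0.00399, adjusted p = 0.0646), past the threshold no longer. *Ppargc1a* had r = 0.80 with *Slc2a2* without the 2 mice farthest from its own median, and 0.79 with *Fbp1* without those farthest from the median of *Fbp1* (adjusted permutation p = 0.0332 for both). *Fgl1* LKO replicates 3 and 4 were highest in *Fbp1* and *Slc2a2*, and *Fgl1* LKO replicates 5 and 8 and *Fgl1* LWT replicate 5 were low in all 3 genes. The relation of *Ppargc1a* with *Fbp1* missed the threshold without *Fgl1* LKO replicate 3 (r = 0.71) or 8 (r = 0.67), and that with *Slc2a2* without *Fgl1* LKO replicate 3 (r = 0.70), 5 (r = 0.69) or 8 (r = 0.69).

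*Slc2a2* was lower where the acute-phase gene *Saa1*, which the liver makes in inflammation, was higher, at r = -0.71 (permutation p = 0.00215, adjusted p = 0.0290) and rho = -0.62 (permutation p = 0.0127, adjusted p = 0.128). Within genotype r was -0.62 in *Fgl1* LWT (exact p = 0.0872, n = 8) and -0.88 in *Fgl1* LKO livers (exact p = 0.00335, n = 8). Without the 2 mice farthest from the median of *Saa1*, r was -0.72 (permutation p = 0.00394, adjusted p = 0.0646), and after removal of genotype and run it was -0.67. *Saa1* spanned 63.8 to 16268 FPKM over the mice and was highest in *Fgl1* LWT replicates 7 and 5. With median-ratio scaling r was -0.66 (permutation p = 0.00621, adjusted p = 0.0838), and this call was lost. With 1 mouse left out the adjusted p was above 0.05 for *Fgl1* LWT replicate 2 (r = -0.68), 3 (r = -0.70) or 5 (r = -0.66) and for *Fgl1* LKO replicate 2 (r = -0.70), 3 (r = -0.67), 5 (r = -0.67) or 8 (r = -0.70), so that the call depended on single mice while r changed little in these fits. *Fgl1* LWT replicate 7, with the highest *Saa1*, went against the relation at 99.8 FPKM of *Slc2a2*. Without this mouse r was -0.82 (adjusted permutation p = 0.00405). *Ppargc1a* had r = -0.66 with *Saa1* (permutation p = 0.00524, adjusted p = 0.0606). *Pck1* and *G6pc* had r = -0.46 and -0.45 with it (adjusted permutation p = 0.274 and 0.305). The summed hepatocyte markers ran from 52315 FPKM in *Fgl1* LKO replicate 5 to 92448 FPKM in *Fgl1* LWT replicate 1. *Fgl1* LWT replicates 1 to 3, the lowest-numbered run, had the 3 highest sums (92448, 80038 and 75542 FPKM) and 3 of the 4 lowest *Saa1* values (63.8, 71.4 and 66.9 FPKM). Most of the sum was *Alb* (31146 to 61191 FPKM), while *Serpina1c*, another of the 4 markers, ranged only from 8571 to 11165 FPKM. The sum therefore follows *Alb* more than the number of hepatocytes. In bulk liver, fewer hepatocytes and less RNA of these genes per hepatocyte cannot be told apart. The part of the hepatocyte markers in these relations was not tested.

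**Figure D3:**
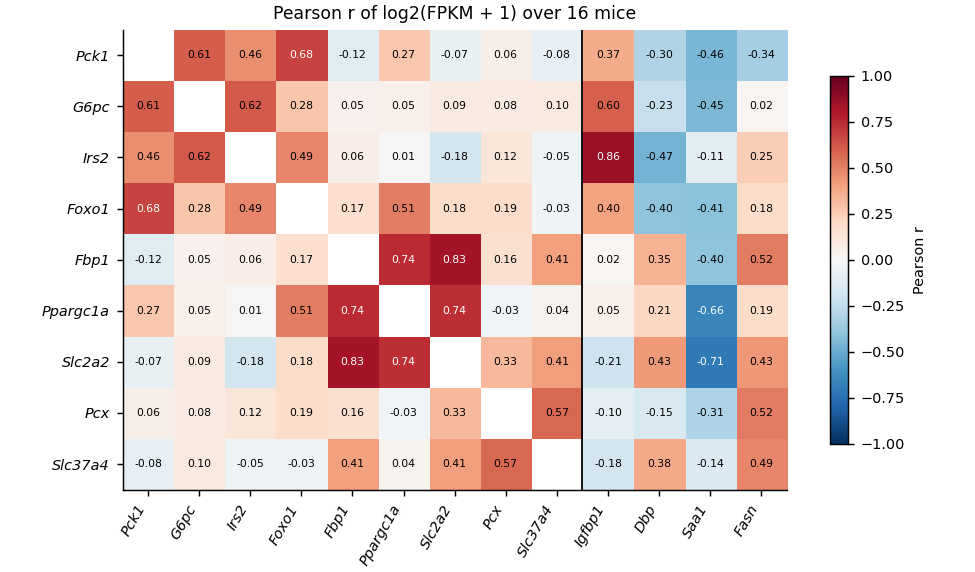
Pearson r of log2(FPKM + 1) over the 16 mice between the 9 genes (left of the line) and with 4 single genes (right of it), in an order chosen by hand. The values of *Fbp1*, *Ppargc1a* and *Slc2a2* with one another lie at 0.74 to 0.83.

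The sequences before the starts of *Slc2a2*, *Ppargc1a* and *Foxo1*, whose genes moved with other members, are shown in the same way (249 bases up to the last base outside the gene, motif matches in capitals, where ATTGG is the CCAAT box read on the other strand).
Slc2a2 (chr3:28751802-28752050, plus strand): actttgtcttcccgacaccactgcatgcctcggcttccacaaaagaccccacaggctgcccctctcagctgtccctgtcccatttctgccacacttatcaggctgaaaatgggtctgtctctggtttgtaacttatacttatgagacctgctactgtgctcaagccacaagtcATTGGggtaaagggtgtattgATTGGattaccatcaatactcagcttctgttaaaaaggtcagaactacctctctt
Ppargc1a (chr5:51725069-51725317, minus strand): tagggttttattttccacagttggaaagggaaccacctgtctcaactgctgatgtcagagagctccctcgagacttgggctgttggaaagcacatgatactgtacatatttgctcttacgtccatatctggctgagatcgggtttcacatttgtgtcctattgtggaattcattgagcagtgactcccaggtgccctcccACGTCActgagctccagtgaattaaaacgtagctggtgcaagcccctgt
Foxo1 (chr3:52175508-52175756, plus strand): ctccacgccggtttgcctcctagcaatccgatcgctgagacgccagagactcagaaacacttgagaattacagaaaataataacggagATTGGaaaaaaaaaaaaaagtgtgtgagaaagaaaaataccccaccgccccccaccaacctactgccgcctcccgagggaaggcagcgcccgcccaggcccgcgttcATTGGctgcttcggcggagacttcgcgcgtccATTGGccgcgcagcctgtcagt

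In these stretches *Slc2a2* had 2 CCAAT matches, at 77 and 56 bases before the RefSeq start, and *Foxo1* had 3. *Ppargc1a* had the cAMP core at 50 bases before its RefSeq start. These distances include 1 base inside the gene that is not printed. The start that RefSeq gives for *Ppargc1a* is 13803 bases away from that of the canonical GENCODE transcript.

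**Figure D4:**
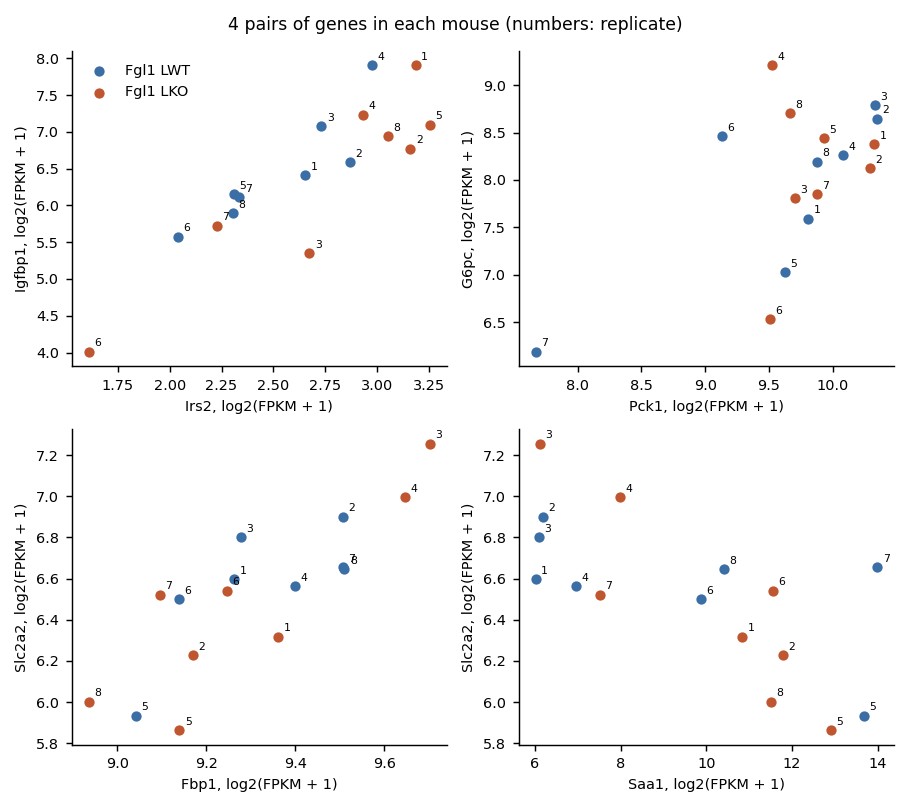
log2(FPKM + 1) of 4 pairs of genes in the 16 mice, blue for *Fgl1* LWT and orange for *Fgl1* LKO, with the replicate number beside each point. *Irs2* and *Igfbp1* are high in the same mice, as are *Fbp1* and *Slc2a2*, *Fgl1* LWT replicate 7 stands alone at the low end of *Pck1*, and *Slc2a2* is lower where *Saa1* is higher.

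The remaining relations did not pass. The clock output gene *Dbp*, which varied from 0.37 to 7.44 FPKM, had r = -0.47 with *Irs2* (permutation p = 0.0659, adjusted p = 0.276), rho = -0.65 (permutation p = 0.00743, adjusted p = 0.0860). *Fasn*, the fatty acid synthase, had r = 0.52 with *Pcx* and 0.52 with *Fbp1* (adjusted permutation p = 0.238 for both), which were 0.16 and 0.15 without the 2 mice farthest from the median of *Fasn*.

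Among 10036 other genes averaging 1 FPKM or more, genes whose deviations from the genotype means were most like those of each member over the 16 mice were ranked by Pearson r, as a description without a test. For *Pck1* they were *Zfp24* (0.88), *Kmt2c* (0.85) and *Angptl4* (0.84), the last a secreted inhibitor of lipoprotein lipase. Among those of *G6pc* were *Slc25a25* (0.79) and *Lats2* (0.78). For *Irs2* they were *Igfbp1* (0.91), *Irf2bp2* (0.84) and *Washc4* (0.83), and for *Foxo1* *Klf15* (0.87), a transcription factor of amino acid use, *Rapgef5* (0.85) and *Acer2* (0.85). Among those of *Slc2a2* were *Map2k6* (0.94) and the bile acid carrier *Slc10a1* (0.91). For *Fbp1* they were *Pdk1* (0.93), *Tmie* (0.93) and *Timd2* (0.92), and for *Ppargc1a* *Arhgef37* (0.92), catalase (*Cat*, 0.92) and *Ccng2* (0.90). For *Pcx* they were *Rab3il1* (0.83), *Kdm2b* (0.83) and *Pspc1* (0.82), and for *Slc37a4* *Wwox* (0.85), *Tusc3* (0.81) and *Ubxn8* (0.78).

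Other forms of the enzymes were measured as well. The mitochondrial carboxykinase *Pck2* had at most 1.37 FPKM, *Fbp2*, the muscle fructose-bisphosphatase, at most 0.17, and *G6pc2*, the islet form, at most 0.04, while the widely expressed glucose-6-phosphatase *G6pc3* had 2.70 to 4.11. These 4 were named after their values were seen. Of 12 sister genes, 9 were tested, and 0 had an unadjusted p under 0.05. The most abundant were *Foxo4* (9.50 FPKM in *Fgl1* LWT and 9.51 in *Fgl1* LKO livers), *Foxo3* (7.04 and 7.75) and *Slc2a1* (5.08 and 4.59).

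Around the pathway, genes of other lists were counted in the same way, beside 7.01% of all genes tested with an unadjusted p under 0.05. The lists were not tested against all genes. Of 24 genes of substrate entry and the reversible steps, 1 had an unadjusted p under 0.05 and 12 were higher and 12 lower in *Fgl1* LKO. This was lactate dehydrogenase B (*Ldhb*, log2 difference -0.24, exact permutation p = 0.0393, adjusted limma p = 0.696), and the abundant *Gapdh* and *Tat* had differences of -0.022 and 0.03. Of 30 hormone and transcription genes 1 had such a p, *Foxa1* (6.18 ± 2.14 and 4.53 ± 0.723 FPKM, n = 8 each, exact permutation p = 0.0639). The glucagon receptor *Gcgr* was at 123 FPKM in both genotypes. Of 11 genes of glucose use 1 had such a p, *Pfkfb1*, which codes for the enzyme that sets fructose 2,6-bisphosphate (18.4 ± 3.32 and 24.1 ± 6.97 FPKM, n = 8 each, exact permutation p = 0.0535, adjusted limma p = 0.696). It was higher in 7 of 8 *Fgl1* LKO mice than the *Fgl1* LWT median. Of 16 glycogen genes and 11 clock genes tested, 0 had an unadjusted p under 0.05.

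The median log2 difference lay at 0.02 for glucose use, -0.0071 for glycogen, 0.0022 for the clock and 0.00036 for the hormone and transcription genes, and at 0.12 for 10 acute-phase genes. The periportal hepatocyte genes, where gluconeogenesis is high, had a median difference of -0.045 with 1 of 8 under an unadjusted 0.05 (*Hal*, 158 ± 28.8 and 130 ± 32.1 FPKM, n = 8 each, exact permutation p = 0.0678). The 8 pericentral genes had a median difference of -0.03 and 0 under 0.05.

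Markers of other cell types were low beside those of hepatocytes. In *Fgl1* LKO replicate 8, which was lowest in *Fbp1*, *Ppargc1a* and *Foxo1* among *Fgl1* LKO mice, the 4 cholangiocyte markers summed to 260.7 FPKM against a median of 50.9, of which *Spp1* made up 255, while *Krt19*, *Krt7* and *Epcam* stayed under 3.5 FPKM in every mouse. The Kupffer cell markers were also highest in this mouse, at 134 FPKM. Markers of sinusoidal endothelium and of stellate cells were highest in *Fgl1* LKO replicate 3 (75.9 and 107 FPKM) and lowest in *Fgl1* LKO replicate 5 (20.4 and 42.2 FPKM), which also held the highest and the lowest *Slc2a2*. The neutrophil markers summed to 31.9 FPKM at most, in *Fgl1* LWT replicate 5, with *S100a8* the most abundant. The 2 erythroid markers summed to 64.3 to 141 FPKM. The part of all these markers in the values of the 9 genes was not tested. T and B cell markers summed to at most 0.61 and 1.19 FPKM.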

How the data were processed

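Liver RNA of 16 mice was sequenced, and the authors deposited FPKM values of 17003 genes, made by aligning filtered reads with HISAT (mm39) and Bowtie2 (versions not given in the sources used here). They are written with 2 decimals. Groups and replicate numbers follow the labels. FPKM are not counts, so log2(FPKM + 1) was tested with limma (3.58.1, R 4.3.3, lmFit and eBayes with trend) over 12770 genes averaging 0.1 FPKM or more, two-sided, adjusted by Benjamini-Hochberg at 0.05. Single genes also had exact permutation tests over 12870 splits, and correlations 100000 resamples (Python 3.11.15, numpy 2.4.6). The scripts were tested on simulated data. The members, lists and named-gene rule (members, list genes with an unadjusted p under 0.05 or among the 3 most abundant, and most-like genes) were chosen with earlier results of these data known. The values of some genes that this rule names, 1 of the 5 single genes among them, are not reported here. Depth is unknown. Low values, read as single reads, gave relative depths of 0.965 to 1.01 (20 to 33 values a mouse). Only values close to the lowest non-zero value of a gene entered, so larger differences in depth could not show. No libraries were identical. Gene positions are from GENCODE vM39 on GRCm39. Alternatives were other pseudocounts, filters and scalings, a replicate block, a term for the run of mouse numbers, and leaving out each mouse.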

Additional observations from a re-analysis of the deposited data

Results flagged for a closer look

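In 3 of 28 groups of 8 mice the lowest value stood apart from the others by more than Dixon's 95% limit on the log2 scale, where chance gives about 1 in 20. *Pck1* was at 203 FPKM in *Fgl1* LWT replicate 7 (gap over range 0.546), the mouse with the highest *Saa1*. *Slc37a4* was at 66.3 FPKM in *Fgl1* LWT replicate 1 (0.558), and *Slc2a2* at 60.1 FPKM in *Fgl1* LWT replicate 5 (0.586).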

How the results depend on the processing

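None of the 9 genes passed the threshold under any of the 27 alternatives run. The count of genes past it was 0 in the limma fit as reported (895 at an unadjusted p under 0.05) and 1, *Fgl1*, with the sum made equal in each mouse, with the replicate block, with runs of mouse numbers fitted beside genotype and without the 3 mice of the lowest-numbered run. Same-numbered mice did not deviate together (r from -0.16 to 0.45, over 0.1 in 3 of 8 pairs, and 2 of 8 *Fgl1* LWT mice were closest to their own number), so the numbers were not taken to pair them, and the block changed no call of the 9 genes. The log2 difference of *Slc2a2* was 0.0063 without the 3 mice of the lowest-numbered run. Leaving out each mouse in turn gave -0.034 to 0.35 for *Pck1*, -0.0097 to 0.46 for *G6pc*, -0.10 to 0.0073 for *Fbp1*, 0.16 to 0.40 for *Irs2*, -0.22 to -0.023 for *Slc2a2*, 0.0041 to 0.13 for *Foxo1*, 0.19 to 0.27 for *Pcx*, 0.18 to 0.32 for *Slc37a4*, -0.33 to -0.15 for *Ppargc1a* and -0.0097 to 0.25 for the median of the 9 genes (chosen after seeing the data), and the cause was not tested. The high end of *Irs2* was without *Fgl1* LKO replicate 6, where its unadjusted limma p was 0.0262 and its adjusted p 0.482 (0.482 to 0.957 over all alternatives). Of the 81 relations, 6 passed, as did 6 after removal of genotype, 5 with median-ratio scaling, 2 without the 2 mice farthest from the median and 0 after removal of genotype and run, where fewer arrangements limit the p. Leaving out each mouse gave 3 to 8, with 3 without *Fgl1* LKO replicate 3 or replicate 8. The SD within a genotype was above that of the median gene for 9 of 9 genes, for 9 with median-ratio scaling, for 7 with a pseudocount of 0.1 FPKM, and for 8 to 9 when each mouse was left out, which was chosen after seeing the data. With 8 mice a group, the 95% intervals of 7 of the 9 genes cover 0, and no counting error can be given without reads.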
